A study of Mus musculus with 11 samples.

Results

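The effect of losing Dnmt3C in testes whose germ cells already lack Nrf1 was examined by comparing double knockout (dKO) with Nrf1 conditional knockout (Nrf1 cKO) testes. The comparison used 6 poly-A RNA-seq libraries of 11 in the series, 3 from dKO and 3 from Nrf1 cKO, and its members are the 31001 gene rows of the count table of this pair of genotypes, from 33188 genes over all tables. Of these rows, 19554 passed a filter on low counts and were tested. All testes were taken whole at postnatal day 5 (P5), when male germ cells are spermatogonia that have not entered meiosis, from mice on a C57Bl6/J background. The labels name the genotypes Nrf1KO/KO and Dnmt3CKO/KO Nrf1KO/KO, and the study's methods describe the Nrf1 deletion as a floxed allele over a null allele, recombined by Ddx4-Cre (Vasa-Cre), which is active in germ cells from late fetal life. Both groups therefore carry the germline Nrf1 deletion, and the constitutive Dnmt3C knockout is what separates them. The remaining libraries, 3 from Dnmt3C KO and 2 from wild type (WT), have Nrf1 intact and served as a second contrast of Dnmt3C loss that shares no library with the first. The sample titles say germ cells, but the labels also list somatic cells, and the summed level of 20 Sertoli cell markers (7350 to 11200 reads scaled to library size as CPM in Nrf1 cKO) was far above that of 34 germ cell markers (277 to 497 CPM).

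DNMT3C is a rodent DNA methyltransferase that arose by duplication of Dnmt3b and methylates the promoters of young retrotransposons in fetal male germ cells. Its loss leaves LINE1 and endogenous retrovirus (ERV) promoters unmethylated, and mutant males are sterile because germ cells arrest in meiosis. NRF1 is an activator that binds a palindromic GC-rich motif and cannot bind when the motif is methylated, and a number of germline genes have such promoters. Long terminal repeats (LTRs) of ERVs carry promoters of their own, from which transcripts of neighbouring genes can start.

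The gene-level counts do not separate the genotypes by the targeted genes. Dnmt3c, the gene deleted in dKO, was at 4.26, 4.89 and 3.50 CPM in dKO and at 3.82, 4.82 and 3.98 CPM in Nrf1 cKO, so the groups overlapped and their difference was -0.00 ± 0.25 (log2 fold change ± SE). Reads of Dnmt3c and its relative Dnmt3b may be shared, and which exons the alleles remove was not analysed here. Dnmt3b had 18.3, 23.7 and 15 CPM in dKO and 15.7, 15.1 and 18.9 CPM in Nrf1 cKO. Nrf1, deleted in germ cells of both groups, was at 51.7 to 60.2 CPM in the 6 libraries. The young retrotransposon subfamily MMERVK10C-int, counted in the same tables, did stand apart, at 302, 209 and 162 CPM in dKO against 33.5, 53.1 and 51.0 CPM in Nrf1 cKO. L1Md_A was at 198, 356 and 314 CPM in dKO against 73.9, 97.1 and 96.4 CPM in Nrf1 cKO. These levels follow the labelled Dnmt3C genotype in these 6 libraries, although their adjusted p was 0.0872 and 0.18 in the same edgeR fit. DESeq2's Wald test on the same counts gave MMERVK10C-int an adjusted p of 1.12e-16 and L1Md_A one of 4.54e-10. With Nrf1 intact, MMERVK10C-int was again higher without overlap in Dnmt3C KO than in WT, at a log2 fold change of 1.74 ± 0.27. L1Md_A overlapped between Dnmt3C KO and WT, with a log2 fold change of 0.22 ± 0.16. Its difference between the contrasts was 1.47 ± 0.30, with an unadjusted p of 0.000261 and an adjusted p of 0.815 in edgeR. IAPEz-int, at 348 to 754 CPM in dKO and 241 to 330 CPM in Nrf1 cKO, did not overlap between these groups. With library sizes set to equal germ cell markers, IAPEz-int had a log2 fold change of 0.05 in dKO over Nrf1 cKO. MMERVK10C-int was then at 1.51, L1Md_A at 1.03 and the median of all genes at -0.70.

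No gene passed the adjusted p threshold of 0.01 in edgeR's quasi-likelihood test (Benjamini-Hochberg adjusted, with TE subfamilies included), in either direction, and the smallest adjusted p of a gene was 0.285. At an unadjusted p under 0.05, 338 genes (1.73% of those tested) lay higher in dKO and 203 (1.04%) lay lower, and these counts are descriptions of direction, not calls. The 3 dKO libraries lay entirely above the 3 Nrf1 cKO libraries for 711 genes (3.64%) and entirely below for 656 (3.35%). The median log2 fold change over all genes tested was -0.02. DESeq2's Wald test, run on the same counts, called 3 genes higher at adjusted p under 0.01 (0.0127% of 23648 with an adjusted p) and 0 lower: BC051019 (adjusted p = 1.24e-06), Spag16 (0.000126) and Sycp1 (0.000239). On simulated counts with 200 changed features, edgeR recovered 73% of them and DESeq2 80%, with 0.68% and 5.88% false among their calls. Genes named below were taken by p, from lists or, where stated, after their values were seen, and none of their differences passed the edgeR threshold.

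Among the largest differences were genes that have an annotated transcript start inside an ERV copy on the same strand. Their sequences are shown first because the start lies in the LTR itself. Gm15389 is a non-coding RNA gene on chromosome 1 whose whole promoter window (250 bases before to 50 after the RefSeq start, GRCm38.p6, chr1:107686750-107687049, plus strand) lies within a copy of RLTR10B2, the LTR of an MMERVK10C-related element, at chr1:107686732-107687147. Capitals mark CpG, the dinucleotide that DNA methyltransferases methylate:
Gm15389: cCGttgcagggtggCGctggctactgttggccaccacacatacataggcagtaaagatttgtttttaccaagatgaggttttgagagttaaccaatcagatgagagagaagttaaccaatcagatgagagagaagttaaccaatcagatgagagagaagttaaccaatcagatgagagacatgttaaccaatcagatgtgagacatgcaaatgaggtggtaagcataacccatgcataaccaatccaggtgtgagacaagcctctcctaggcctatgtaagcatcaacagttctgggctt
This window has 2 CpG, and 85.9% of all 32851 RefSeq promoter windows have at least as many. The bases of the first exon that lie within the LTR are shown for 3 non-coding transcripts (GENCODE M21, GRCm38), again with CpG in capitals. Gm15389-201 starts within RLTR10B2 (chr1:107687008-107687147, plus strand), Gm4316-202 within RLTR10D2 (chr8:123172845-123172950, plus strand) and E330020D12Rik-202 within RLTR10A (chr1:153407678-153407790, minus strand):
Gm15389-201: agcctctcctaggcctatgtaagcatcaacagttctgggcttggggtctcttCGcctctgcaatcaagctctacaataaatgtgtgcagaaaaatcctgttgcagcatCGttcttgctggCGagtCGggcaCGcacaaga
Gm4316-202: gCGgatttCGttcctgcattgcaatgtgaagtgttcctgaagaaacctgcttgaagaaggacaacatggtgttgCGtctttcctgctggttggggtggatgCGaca
E330020D12Rik-202: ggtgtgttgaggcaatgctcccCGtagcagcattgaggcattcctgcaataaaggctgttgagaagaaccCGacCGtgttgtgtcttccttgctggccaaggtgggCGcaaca
These stretches of 140, 106 and 113 bases have 5, 4 and 4 CpG. Each is the 5′ end of an annotated transcript, and counts per gene do not say which transcript was sequenced.

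BC051019, a little-studied protein-coding gene on chromosome 7, had the smallest p of all genes. Its level was 2.91, 2.51 and 1.48 CPM in dKO against 0.150, 0.269 and 0.191 CPM in Nrf1 cKO, from 104, 82 and 49 reads against 5, 10 and 5. Every dKO library was above every Nrf1 cKO library by a wide margin, with a log2 fold change of 3.46 ± 0.50 (SE; edgeR adjusted p = 0.285). Its transcript BC051019-203 starts within an RLTR10B2 copy on the same strand (chr7:109720938-109721322, GRCm38), the same kind of LTR as at Gm15389. In the libraries with Nrf1 intact, BC051019 was at 4.6, 2.34 and 3.24 CPM in Dnmt3C KO against 0.162 and 0.902 CPM in WT, again without overlap (as for 10.1% of genes higher and 10.3% lower in that contrast), with a log2 fold change of 2.7 ± 0.55.

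Gm15389 was at 1.26, 1.04 and 0.332 CPM in dKO and at 0.0301, 0 and 0.191 CPM in Nrf1 cKO, from 45, 34 and 11 reads against 1, 0 and 5. The groups did not overlap, although dKO 3 was much lower than the other dKO libraries, and the log2 fold change was 3.75 ± 0.90. With each library left out in turn it ranged from 3.08 to 5.64 (without Nrf1 cKO replicate 3). Dnmt3C KO over WT gave 4.45 ± 0.75, from 78, 45 and 79 reads against 1 and 5.

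Spag16 encodes a protein of the central apparatus of motile cilia and sperm flagella. It was at 3.33, 2.05 and 0.845 CPM in dKO and at 0.150, 0.108 and 0.268 CPM in Nrf1 cKO, with no overlap (3.62 ± 0.69 on the log2 scale). Its non-coding transcript Spag16-203 starts within IAPLTR2b, the LTR of an intracisternal A particle element, on the same strand (chr1:69831514-69831856, GRCm38). The difference with Nrf1 intact was 2.90 ± 0.50, with 3.88, 2.11 and 3.72 CPM in Dnmt3C KO against 0.270 and 0.601 CPM in WT.

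The non-coding genes Gm4316 and E330020D12Rik, and the zinc finger gene Zfp773, were chosen after their values were seen. Gm4316 was at 2.60, 2.29 and 0.935 CPM in dKO and at 0.722, 0.727 and 0.536 CPM in Nrf1 cKO (1.54 ± 0.46), beside 1.86 ± 0.50 for Dnmt3C KO over WT. E330020D12Rik was at 0.952, 0.611 and 0.332 CPM in dKO and at 0.241, 0.350 and 0.306 CPM in Nrf1 cKO, where dKO 3 fell within the range of Nrf1 cKO. Zfp773, with exons over IAP1-MM and MMERVK10C-int copies on its strand, was at 6.13, 5.93 and 4.83 CPM in dKO and at 3.10, 3.04 and 4.48 CPM in Nrf1 cKO. Its log2 fold change of 0.69 ± 0.26 stood beside 1.14 ± 0.29 with Nrf1 intact.

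Of 43 genes in the table with a start in a same-strand MMERVK10C or RLTR10 copy, 18 could be tested. At an unadjusted p under 0.05, 3 were higher and 1 was lower, beside 1.73% and 1.04% of all genes, with a median log2 fold change of 0.00 and 9 of 18 above 0. The lower one was Ablim1, a gene for an actin-binding protein expressed in many somatic cells, at 33.7, 24.2 and 39.8 CPM in dKO and 51.1, 50.9 and 36.8 CPM in Nrf1 cKO, with overlap. For IAP copies 18 of 48 genes were tested, 1 was higher and 0 lower, 13 were above 0 and the median was 0.17. None of 5 tested genes with a same-strand start in L1Md_A, and none of 25 in other L1Md copies, had an unadjusted edgeR p under 0.05. Of genes with a start in a copy on the opposite strand, 2 of 23 for IAP and 3 of 44 for other L1Md copies were higher and 0 lower, and 0 of 12 for MMERVK10C or RLTR10 and 0 of 6 for L1Md_A had such a p. Sycp1 and Brca2 have such opposite-strand starts in their transcripts Sycp1-203 (in L1Md_T) and Brca2-211 (in L1Md_F2). Genes that passed the low-count filter only through dKO, such as Gm15389, BC051019 and Spag16, could hardly have come out otherwise, so these counts are given as they are.

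**Figure D1:**
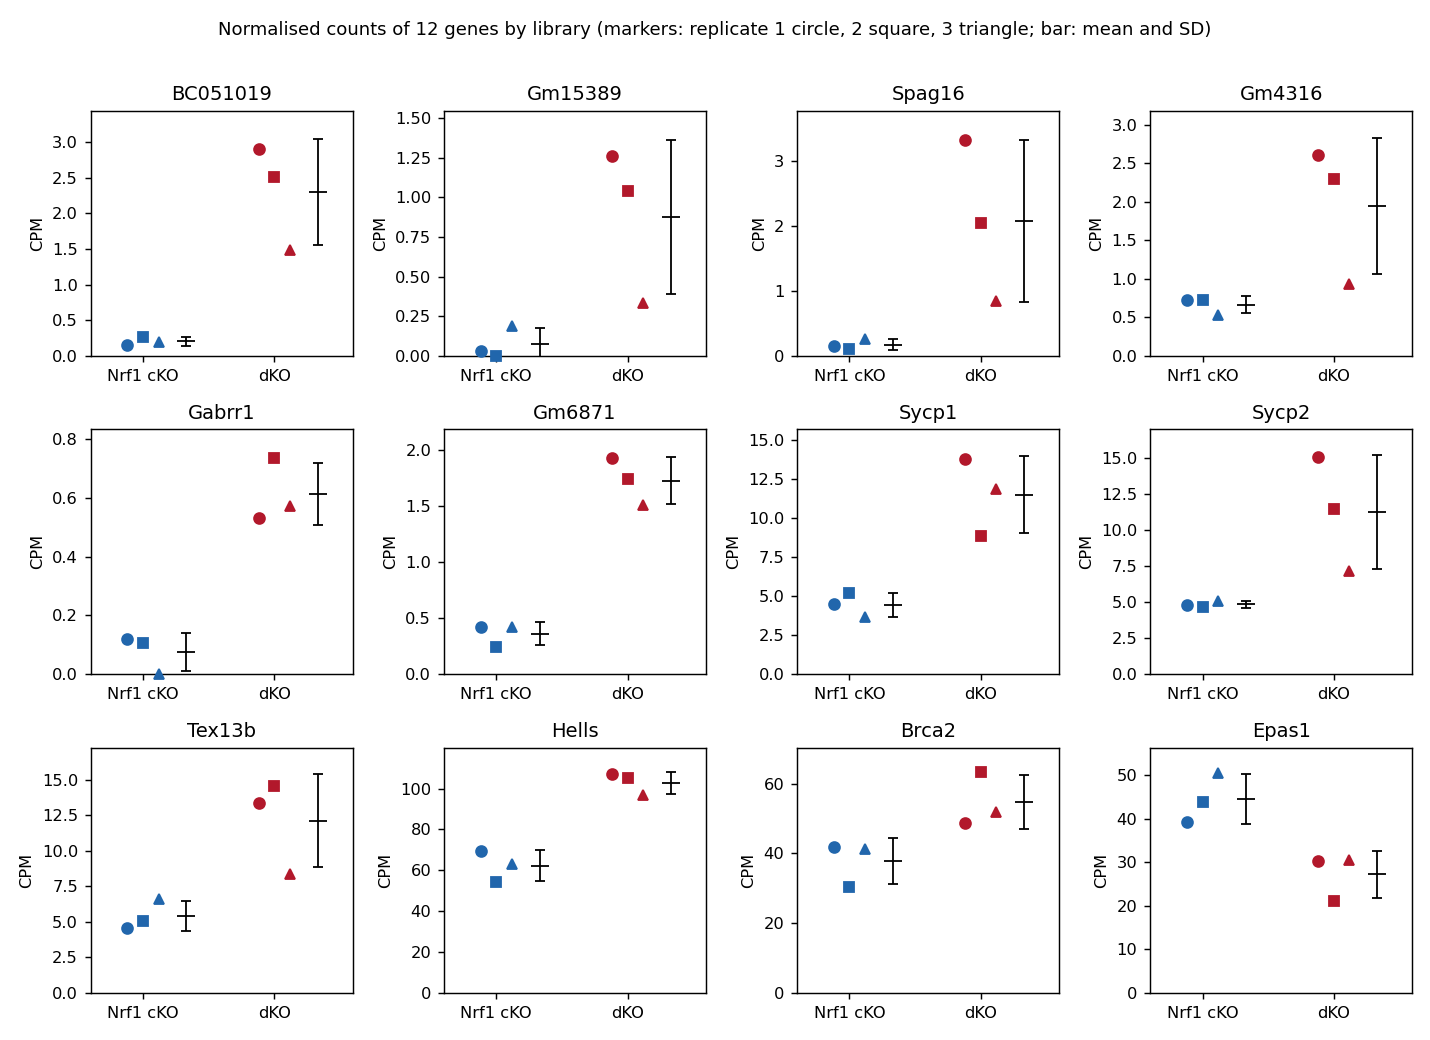
Normalised counts (CPM, linear axis from 0) of 12 genes in the 3 Nrf1 cKO (blue) and 3 dKO (red) libraries, with mean and SD beside the points. BC051019, Gm15389, Spag16 and Gabrr1 were near 0 in Nrf1 cKO, Hells and Brca2 differed by less, and Epas1 was lower in all dKO libraries.

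Gabrr1, a subunit of the GABA-C receptor of the retina, had no copy of the young subfamilies at its annotated starts. It was at 0.532, 0.733 and 0.573 CPM in dKO and at 0.120, 0.108 and 0 CPM in Nrf1 cKO, from 19, 24 and 19 reads against 4, 4 and 0. The dKO libraries were close to each other and apart from Nrf1 cKO, with a log2 fold change of 2.83 ± 0.65, and with Nrf1 intact it was 3.61 ± 0.76. Gabrr1, like Clvs1, passed the low-count filter through dKO, so that its direction was largely set by the filter. Clvs1, Gm15950 and Boll were chosen after their values were seen and were higher in both contrasts at an unadjusted p under 0.05. Clvs1, a lipid-transfer protein known from neurons, was at 2.10, 0.733 and 0.603 CPM in dKO against 0.0301, 0.350 and 0.230 CPM in Nrf1 cKO, with log2 fold changes of 2.47 ± 0.74 and, with Nrf1 intact, 2.81. Boll, an RNA-binding protein of the DAZ family needed for spermatid formation, was at 4.96, 3.36 and 2.69 CPM against 1.77, 1.32 and 1.80 CPM, with log2 fold changes of 1.19 and 0.80.

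The second contrast was used to see which of the 338 higher genes were also higher when Dnmt3C was lost with Nrf1 intact. Of the 337 with a value there, 39 (11.6%) were higher and 9 (2.67%) were lower at an unadjusted p under 0.05, beside 2.45% and 2.53% of all 19379 genes tested in both. The 39 were 8.21% of the genes higher in Dnmt3C KO over WT among those tested in both. Of all genes tested in that contrast, 2.67% were higher and 2.62% lower. Of the 203 lower genes, 201 had a value, and 8 (3.98%) were higher and 5 (2.49%) lower. The direction alone was less alike: 186 of the 337 (55.2%) were above 0 with Nrf1 intact, against 52.3% of all genes, and the median was 0.05. Of the 201 lower genes, 85 (42.3%) were below 0 there, against 47.7% of all genes, and their median was 0.05. The shared genes included those with LTR starts (BC051019, Spag16, Gm15389, Gm4316) and 12 on the X chromosome, among them Nxf2, Mageb4, Fmr1nb, Fthl17f, Ctag2l1 and Xlr5c, genes of families expressed in germ cells. BC051019, Spag16 and Gm15389 had at most 10 reads in any Nrf1 cKO library and passed the low-count filter through dKO, so that their place among the higher genes was largely set by the filter. The 9 that went the other way, Brca2 among them, were a share near that of all genes. A test of the difference between the contrasts (the interaction over 11 libraries) called 0 genes at adjusted p under 0.01 in edgeR, and 0 in DESeq2. Its unadjusted p was under 0.05 for 627 genes (2.89%) in the higher and 447 (2.06%) in the lower direction. On simulated counts it recovered 56% of changed features, whose changes were larger than most of those named here.

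**Figure D2:**
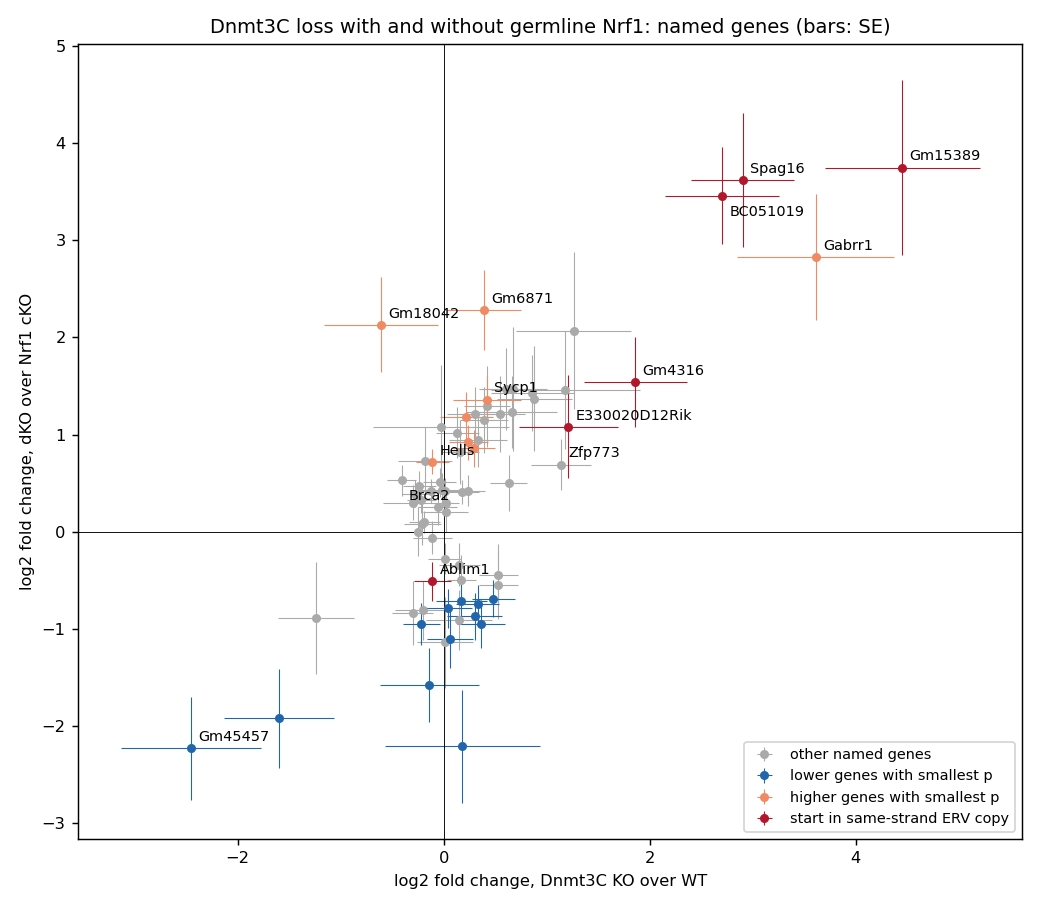
Log2 fold change of the named genes in dKO over Nrf1 cKO (vertical) against Dnmt3C KO over WT (horizontal), with SE bars; colours mark the selection rule and genes with a transcript start in a same-strand ERV copy. Gm15389, Spag16, BC051019, Gabrr1 and Gm4316 lie high on both axes, while Gm6871 and Gm18042 lie high on the vertical axis only and Hells and most of the lower genes lie near 0 on the horizontal axis, and Brca2 lies below 0 on it, at -0.41 ± 0.14.

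Genes of meiosis made up the next group. Sycp1 encodes the transverse filament of the synaptonemal complex, which joins paired chromosomes, and was at 13.8, 8.86 and 11.9 CPM in dKO against 4.48, 5.20 and 3.67 CPM in Nrf1 cKO. Its log2 fold change was 1.36 ± 0.24 (edgeR adjusted p = 0.641), with no overlap. The libraries with Nrf1 intact differed less, with 21.9, 8.90 and 17.0 CPM in Dnmt3C KO and 9.10 and 14.7 CPM in WT, a log2 fold change of 0.42 ± 0.33. The promoter window of Sycp1 is shown because the gene is also one of those whose promoter is known to be kept silent by methylation in somatic cells (chr3:102936051-102936350, minus strand, GRCm38.p6, CpG in capitals):
Sycp1: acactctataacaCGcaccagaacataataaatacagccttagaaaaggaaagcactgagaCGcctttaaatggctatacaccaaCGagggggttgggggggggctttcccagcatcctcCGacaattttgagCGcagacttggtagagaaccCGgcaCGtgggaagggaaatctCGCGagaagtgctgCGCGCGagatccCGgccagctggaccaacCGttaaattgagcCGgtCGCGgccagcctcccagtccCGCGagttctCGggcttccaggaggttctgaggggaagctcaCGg
It has 21 CpG, and 24.8% of windows have at least as many.

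Sycp2, of the chromosome axis, was at 15.1, 11.5 and 7.21 CPM in dKO and at 4.84, 4.66 and 5.13 CPM in Nrf1 cKO, and the 3 Nrf1 cKO values were nearly the same while the dKO values spread (log2 fold change 1.21 ± 0.28). Sycp3, its partner, was at 3.70, 3.64 and 1.99 CPM against 1.56, 0.942 and 1.53 CPM, also without overlap (1.23 ± 0.37). Tex11, an X-linked gene for a crossover factor, was at 17.6, 9.56 and 7.21 CPM against 6.62, 4.31 and 4.63 CPM (1.15 ± 0.34). Of the meiosis list, 26 of 31 genes were tested. At an unadjusted p under 0.05, 9 of them were higher and 0 lower, beside 1.73% and 1.04% of all genes, 24 were above 0 and the median log2 fold change was 0.84. The list's median with Nrf1 intact was 0.30, with 0 higher and 1 lower.

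Germline genes known to depend on promoter methylation, 27 of 30 of which were tested, were all above 0, with 9 higher (1.73% of all genes) and a median of 0.85. With Nrf1 intact their median was 0.42, with 4 higher and 0 lower, beside 2.67% and 2.62% of all genes in that contrast. Xlr5a, of an X-linked family related to Sycp3, was at 8.35, 6.69 and 2.87 CPM in dKO and at 1.95, 2.26 and 2.49 CPM in Nrf1 cKO (1.43 ± 0.39), although members of this family are close copies whose reads may be shared. Germ cell markers showed the same direction: 10 of 34 were higher and 0 lower (1.73% and 1.04% of all genes), 30 were above 0 and the median was 0.64, beside 0.24 with 4 higher and 1 lower with Nrf1 intact. The lists share members, so their counts are not independent. Sycp3 is in the meiosis, methylation-dependent and germ cell lists. Sycp1 and Tex11 are in both the meiosis and methylation-dependent lists, and Dazl and Ddx4 in both the methylation-dependent and germ cell lists. Usp26, an X-linked deubiquitinase of germ cells, was at 22.4, 15.6 and 11.5 CPM against 10.0, 6.65 and 7.77 CPM (1.02 ± 0.26). Dazl, an RNA-binding protein that licenses germ cell fate, was at 119, 67.3 and 32.8 CPM against 43.8, 21.2 and 24.5 CPM, with overlap (1.29 ± 0.42). Ddx4, the helicase whose promoter drives the Cre, was at 55.1, 51.8 and 26.8 CPM against 38.7, 17.3 and 19.5 CPM, with overlap (0.82 ± 0.33).

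The mean log2 CPM over the 34 germ cell markers was 3.43, 3.42 and 2.43 in dKO and 3.02, 2.04 and 2.17 in Nrf1 cKO. The groups overlapped: dKO 3 was below Nrf1 cKO 1. In whole testes a larger share of germ cells and more RNA of a gene per germ cell cannot be told apart, and the part of germ cell content in the results on germline genes was not tested. With library sizes set so that germ cell markers were equal, all genes moved down by a similar amount. The germ cell list came near 0 by construction, with a median of -0.05. The medians were 0.16 for meiosis genes, 0.18 for methylation-dependent germline genes and -0.70 for all genes. These lists lay 0.65, 0.86 and 0.88 above all genes, much as before scaling (medians of 0.64, 0.84 and 0.85 against -0.02). Such scaling therefore cannot show what remains of these lists beyond germ cell content. BC051019 was then at 2.78, Spag16 at 2.95, Gm15389 at 3.09, Gabrr1 at 2.16 and Sycp1 at 0.69. The counts rest on single libraries as well: the number of higher germ cell markers was 4 without dKO replicate 1, 5 without dKO replicate 2 or Nrf1 cKO replicate 2, 17 without dKO replicate 3 and 20 without Nrf1 cKO replicate 1. For methylation-dependent genes it was 4 when dKO replicate 1 was left out and 22 when Nrf1 cKO replicate 1 was, and for meiosis genes 5 and 13. Without dKO replicate 3 it was 17 and 12 in these lists, and without dKO replicate 2 it was 5 for meiosis genes. With 1 library left out, the median ran from 0.38 (without dKO replicate 1) to 1.12 (without dKO replicate 3) for meiosis genes, and for methylation-dependent genes it was lowest at 0.44 when dKO replicate 1 was left out and highest at 1.34 when Nrf1 cKO replicate 1 was. The same libraries gave germ cell markers 0.50 and 1.07.

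Genes of the spermatogonial stages were read as further lists, which share members with those above. Of 22 tested genes of undifferentiated spermatogonia, which include the stem cells, 0 had an unadjusted edgeR p under 0.05 in either direction and 14 were above 0, with a median of 0.25. The median was -0.13 without dKO replicate 2, and 0.50 with 3 higher genes without Nrf1 cKO replicate 1. Of 12 genes of differentiating spermatogonia, 3 were higher and 0 lower (1.73% and 1.04% of all genes), 12 were above 0 and the median was 0.61. Stra8, the retinoic acid target that gates meiotic entry, was at 25, 10.5 and 3.50 CPM in dKO and at 2.50, 3.34 and 8.65 CPM in Nrf1 cKO, with overlap (1.47 ± 0.64). Crabp1, a retinoic acid-binding protein, was at 14.2, 7.88 and 2.47 CPM against 4.39, 2.15 and 3.02 CPM (1.37 ± 0.54). In both genes dKO 1 was far above the rest, and 0 of the 12 were higher without dKO replicate 1, dKO replicate 2 or Nrf1 cKO replicate 2, against 7 without dKO replicate 3 and 5 without Nrf1 cKO replicate 1. Of 28 genes of the piRNA pathway, the small RNA system that guides retrotransposon methylation, 3 were higher and 0 lower with a median of 0.34. The number was 1 (median 0.19) without dKO replicate 1, 7 without dKO replicate 3 and 16 (median 1.16) without Nrf1 cKO replicate 1. The lowest median was 0.11, without Nrf1 cKO replicate 2. The 3 were Ddx4, Rnf17 and Pnldc1, the exonuclease that trims piRNA ends, at 16.1, 13.2 and 8.27 CPM against 7.97, 5.44 and 6.24 CPM (0.94 ± 0.27). Scaled to equal germ cell markers, the medians of undifferentiated, differentiating and piRNA genes were -0.45, -0.05 and -0.31.

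**Figure D3:**
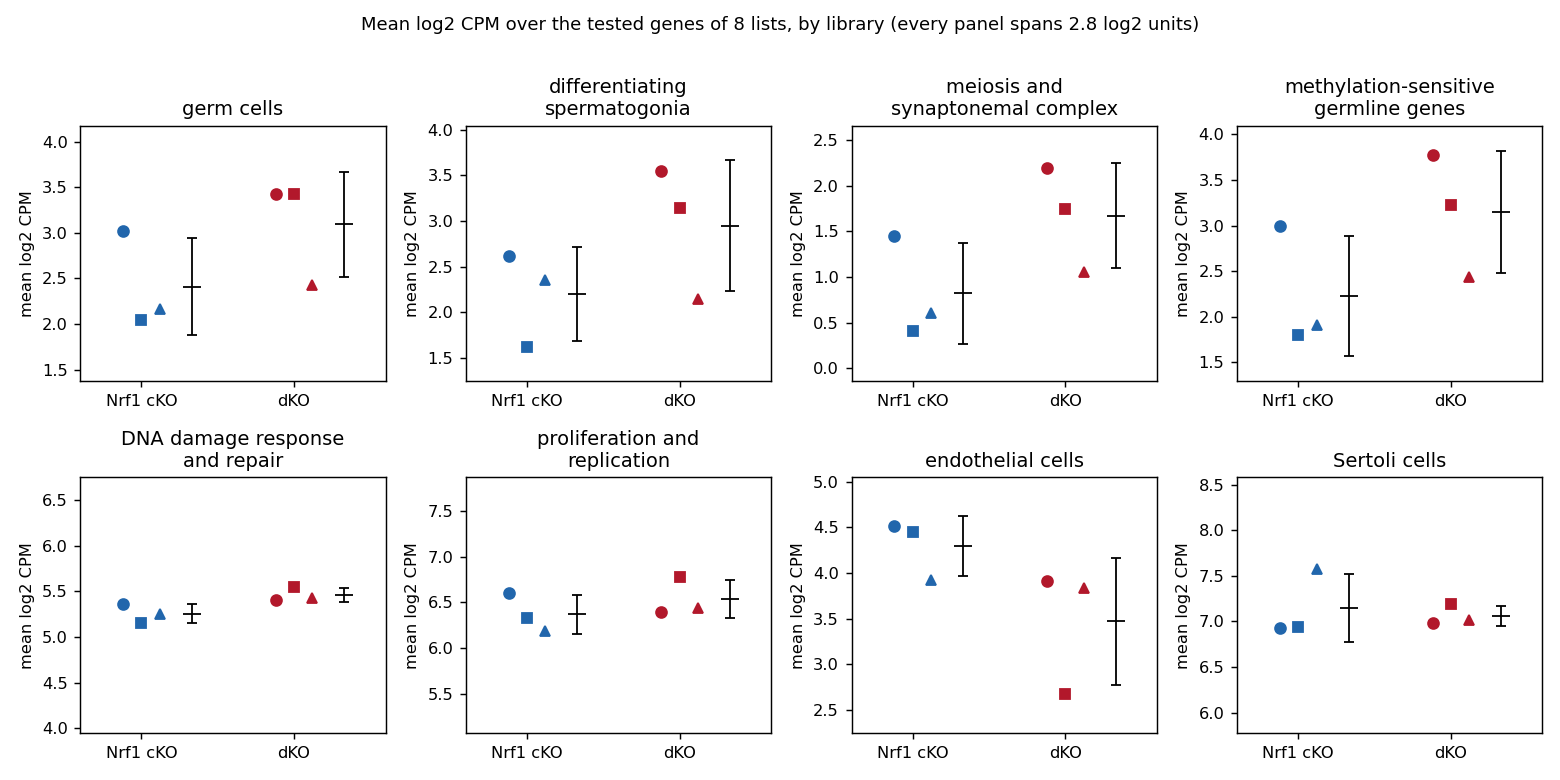
Mean log2 CPM over the tested genes of 8 lists in each Nrf1 cKO (blue) and dKO (red) library, with mean and SD; every panel spans 2.8 log2 units. In the 4 panels of germline genes dKO 1 is highest and Nrf1 cKO 2 lowest, repair genes are slightly higher in all dKO libraries (scaled to germ cell markers their median was -0.45 and that of all genes -0.70), and dKO 2 is lowest in endothelial genes.

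The X chromosome held 4.08% of all genes tested, but 42 of the 338 higher genes (12.4%) and 6 of the 203 lower ones (2.96%). The median over all 797 X-linked genes was 0.03. Of the 42, 36 were in none of the 6 germline lists described here. These lists are short, and the 36 include Tex13b, Xlr5c, Fmr1nb and Fthl17f, of families expressed in testis or germ cells. Tex13b, of a testis-expressed X-linked family, was at 13.4, 14.6 and 8.39 CPM in dKO and at 4.54, 5.09 and 6.62 CPM in Nrf1 cKO, without overlap (1.18 ± 0.26), beside 0.22 ± 0.26 with Nrf1 intact. Nxf2, an mRNA export factor of germ cells, was at 66.9, 36.8 and 18.3 CPM against 20.5, 10.1 and 13.4 CPM, with overlap (1.47 ± 0.42). Genes on autosomes with a similar size of difference included Pramef12, of a germline family with many copies, at 21.1, 21.3 and 16.1 CPM against 9.11, 11.2 and 10.7 CPM (0.92 ± 0.18), and Gm6871, at 1.93, 1.74 and 1.51 CPM against 0.421, 0.242 and 0.421 CPM (2.28 ± 0.41). Gm6871 had 69, 57 and 50 reads in dKO against 14, 9 and 11 in Nrf1 cKO, and passed the low-count filter mainly through dKO. Its log2 fold change was 0.39 ± 0.36 in Dnmt3C KO over WT, at 3.99, 2.36 and 2.03 CPM and 2.35 and 1.92 CPM.

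Genes named Zfp with a number, mostly zinc finger genes of which many repress ERVs, gave 14 higher and 2 lower of 389 tested. They made up 4.14% of the higher and 0.985% of the lower genes beside 1.99% of all genes tested, with a median of 0.10. Zfp951 was at 11.2, 14.2 and 14.7 CPM in dKO and at 7.25, 7.03 and 7.80 CPM in Nrf1 cKO (0.86 ± 0.19).

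Few genes of the chromatin and cell division lists had an unadjusted edgeR p under 0.05. Hells is a chromatin remodeller (LSH) required for DNA methylation of repeats. It was at 107, 105 and 96.8 CPM in dKO and at 69.3, 54.5 and 63.2 CPM in Nrf1 cKO, so the groups were well apart, with a log2 fold change of 0.72 ± 0.13 (edgeR adjusted p = 0.641). Scaled to equal germ cell markers it was 0.07, where the median of all genes was -0.70. With Nrf1 intact it was -0.11 ± 0.16, at 120, 98.7 and 109 CPM in Dnmt3C KO and 103 and 133 CPM in WT. The promoter window of Hells is shown beside that of Sycp1 as a window rich in CpG (chr19:38930740-38931039, plus strand, GRCm38.p6):
Hells: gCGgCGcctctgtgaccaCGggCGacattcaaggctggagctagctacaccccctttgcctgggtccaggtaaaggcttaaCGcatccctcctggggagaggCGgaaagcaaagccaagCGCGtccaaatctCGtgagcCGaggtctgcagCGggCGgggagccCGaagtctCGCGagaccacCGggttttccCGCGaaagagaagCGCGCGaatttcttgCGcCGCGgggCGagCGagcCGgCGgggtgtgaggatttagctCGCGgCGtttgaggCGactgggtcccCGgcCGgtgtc
It has 34 CpG, and 7.73% of windows have at least as many. The NRF1 motif GCGCATGCGC, which reads the same on both strands, was in 1.75% of the 16160 windows of tested genes and in none of the windows of Gm15389, Sycp1 and Hells. It was in 0 of 268 windows of the higher genes and in 4 of 160 (2.5%) of the lower ones. By list, it was in 3 of 25 windows (12%) of meiosis genes, in 5 of 31 (16.1%) of methylation-dependent germline genes and in 0 of 27 of repair genes. Other forms of the motif were not searched.

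Of 30 tested genes of the DNA damage response, 8 were higher and 0 lower, 23 were above 0 and the median was 0.22. Brca2, which acts in homologous recombination, was at 48.7, 63.4 and 51.8 CPM in dKO against 41.8, 30.3 and 41.4 CPM in Nrf1 cKO (0.53 ± 0.16). Palb2, its partner, was at 16.7, 18.7 and 17.6 CPM against 12.4, 11.6 and 13.4 CPM (0.51 ± 0.15). Atm, the kinase that senses double-strand breaks, was at 67.6, 60.3 and 66.0 CPM against 51.4, 40.8 and 55.5 CPM (0.39 ± 0.14). Without dKO replicate 1 or Nrf1 cKO replicate 2, 3 of the 30 were higher. In the libraries with Nrf1 intact the same list had a median of -0.15. Beside 1.73% of all genes that were higher, Polycomb genes gave 2 higher of 22 (4 without Nrf1 cKO replicate 3), Eed and Mtf2, both subunits of the PRC2 complex, with log2 fold changes of 0.41 ± 0.12 and 0.42 ± 0.12. Proliferation genes gave 2 of 25 (Bub1 and Ccnb1), or 0 to 3 with 1 library left out. DNA methylation genes gave 2 of 18 (Hells and Cdca7, which recruits HELLS), or 1 without Nrf1 cKO replicate 2 or 3 or dKO replicate 1 or 2. Scaled to equal germ cell markers, Brca2, Palb2, Atm, Eed, Mtf2, Bub1, Ccnb1 and Cdca7 turned to between -0.12 and -0.38, above the median of all genes of -0.70, and the median of the repair list was -0.45.

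GC content differed between the higher and the lower genes, but its trend differed between libraries of the same genotype. The median GC content of the longest transcript was 49.8% over all tested genes, 43.7% over the higher genes and 53.6% over the lower ones. Over protein-coding genes, the median log2 fold change went from 0.12 in the decile of lowest GC content to -0.08 in the highest. It followed dKO 3 most, whose median deviation from the mean of the 6 libraries was 0.17 in the lowest decile and -0.09 in the highest, and Nrf1 cKO 2, with -0.11 and 0.10. With offsets that remove this trend (an alternative chosen after seeing the data), 275 genes (1.41%) were higher and 150 (0.767%) lower. Hells was then at 0.59, Brca2 at 0.46 and Sycp1 at 1.17, while BC051019 stayed at 3.52, Spag16 at 3.54 and Gm15389 at 3.75.

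**Figure D4:**
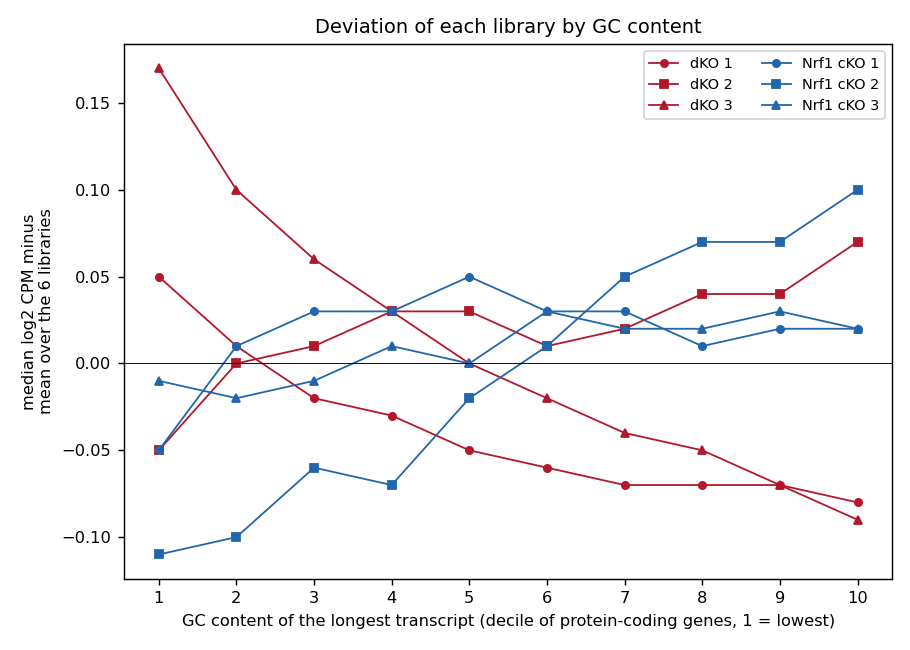
Median deviation of log2 CPM from the mean of the 6 libraries, for protein-coding genes in deciles of transcript GC content, 1 line per library. dKO 3 and dKO 1 slope down and Nrf1 cKO 2 and dKO 2 slope up, while Nrf1 cKO 3 stays within 0.03 of 0.

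The 12 lower genes of smallest p, led by Gm45457 and Cadm3, included Gpr182, Epas1 and Rasip1, known from blood vessels. Epas1, the hypoxia-inducible factor HIF-2α, abundant in endothelium, was at 30.2, 21 and 30.5 CPM in dKO and at 39.3, 43.8 and 50.6 CPM in Nrf1 cKO, without overlap (log2 fold change -0.71 ± 0.17). Gpr182, an endothelial chemokine-scavenging receptor, was at 0.504, 0.580 and 0.543 CPM against 1.77, 1.83 and 1.19 CPM (-1.58 ± 0.38). Rasip1, needed for vessel lumens, was at 5.77, 4.22 and 6.10 CPM against 11.1, 10.7 and 7.46 CPM (-0.87 ± 0.24). All 10 endothelial markers were below 0, with 5 lower and 0 higher at an unadjusted p under 0.05 (1.04% and 1.73% of all genes) and a median of -0.76. Pecam1, the junction protein CD31, was at 27.1, 12.2 and 29.5 CPM against 54.0, 42.6 and 26.8 CPM, with overlap (-0.84 ± 0.33). The list's mean log2 CPM was 3.91, 2.67 and 3.83 in dKO and 4.52, 4.45 and 3.92 in Nrf1 cKO, with dKO 2 far below the others, and the median was -0.45 with 1 lower gene without dKO replicate 2. It was also 1 without Nrf1 cKO replicate 1 or 2, and 8 without Nrf1 cKO replicate 3. With Nrf1 intact the same list had a median of -0.01.

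Other lower genes were Igfbp3, a carrier of insulin-like growth factors, at 42.3, 19.2 and 33.2 CPM against 66.4, 66.2 and 50.1 CPM (-0.95 ± 0.25), and Cadm3, a cell adhesion molecule, at 10.4, 9.17 and 15.7 CPM against 23.3, 25.6 and 18.9 CPM (-0.95 ± 0.22). Of the remaining 7 genes that the rule names, Ly6d, Pcp4l1, Afap1l1, Pcdh1 and Crip2 are protein-coding and had log2 fold changes from -2.21 to -0.69. The -2.21 is that of Ly6d, with 1, 4 and 4 reads in dKO against 17, 14 and 10 in Nrf1 cKO. Ly6d passed the low-count filter through Nrf1 cKO, which largely set its direction. Gm45457, which was lower in both contrasts (-2.23 ± 0.53 and -2.45 ± 0.68), had at most 13 reads in any of the 6 libraries and passed the low-count filter through Nrf1 cKO, which largely set its direction. Gm5242 is a pseudogene whose reads may come from its parent gene, and it too passed the filter through Nrf1 cKO. The pseudogene Gm18042, among the higher genes, had 17 or 18 reads in each dKO library and 3 or 4 in each Nrf1 cKO library, and passed the filter through dKO.

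Markers of other somatic cells had no member at an unadjusted edgeR p under 0.05. The medians were -0.14 over 20 Sertoli cell, -0.26 over 12 Leydig cell, -0.11 over 10 peritubular myoid cell, -0.28 over 10 macrophage, -0.54 over 9 red blood cell and -0.12 over 7 epididymis and rete genes. These values rest on single libraries: 5 of the macrophage genes were lower without dKO replicate 3 (median -0.62) and 4 of the Leydig cell genes without Nrf1 cKO replicate 3. The red blood cell median was 0.38 without Nrf1 cKO replicate 2, and the Sertoli cell median 0.13, with 2 higher genes, without Nrf1 cKO replicate 3. The Sertoli cell median was -0.18, with 2 lower genes, without Nrf1 cKO replicate 1. With all 6 libraries, no member had such a p among 38 genes of the interferon response and nucleic acid sensing (median 0.02, with 23 above 0), 35 imprinted genes (-0.02), 23 niche signals (-0.04) and 24 genes of NRF1 and mitochondrial biogenesis (0.05). Leaving out Nrf1 cKO replicate 3 gave 3 lower imprinted genes and, among niche signals, 1 higher and 2 lower. Where 1.73% of all genes were higher, of 32 genes of the p53 pathway 1 was (Mdm2, 0.33 ± 0.14), of 26 genes of H3K9 methylation 1 (Setdb2, 0.43 ± 0.17; scaled to germ cell markers, Mdm2 was at -0.36 and Setdb2 at -0.25, above the -0.70 of all genes), and of 24 stress genes 1 (Fosb, at 7.09 CPM in dKO 3 and at most 1.83 CPM in the other 5 libraries). With 1 library left out these counts of higher genes ran from 0 to 2, from 0 to 4 and from 0 to 2.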

How the data were processed

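Poly-A RNA of whole testes at P5 was sequenced by the authors, who aligned reads with STAR 2.7.3a to GRCm38 and counted genes and TE subfamilies with TEtranscripts in stranded, multi-mapping mode. Raw counts were deposited by pair of genotypes beside the authors' DESeq2 1.44.0 log2 fold changes and p-values, which were not used. The deposited TPM of TE copies served for their positions only. The counts of the 6 libraries summed to between 26063342 and 37442881, and libraries of 1 genotype differed beyond sampling noise. The reads carry no molecular identifiers.

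Here edgeR 4.0.16 was run on the 6 libraries (filterByExpr, TMM, quasi-likelihood test, Benjamini-Hochberg adjustment over 19554 genes with 827 TE subfamilies), and on 11 libraries for the interaction. Groups are those of the labels, which do not say whether replicates are separate animals. The paper describes biological replicates with littermate controls where possible, but which libraries share a litter was not known here. The p-values measure the spread between these libraries. The SE is the absolute log2 fold change over the square root of F, and CPM use TMM factors. DESeq2 1.42.0 was an alternative, and the tests were tested on simulated data. Positions and TE overlaps used GENCODE M21, which matched 30870 genes. Named genes were Nrf1, the Dnmt genes and Ddx4, the 12 higher and 12 lower genes of smallest p whose groups did not overlap, and up to 4 genes a list, some given only within their list's counts; 1 gene is not reported here. After the values were seen this was narrowed, for each list, to members with an unadjusted p under 0.05, or to 1 where none had it. The members and lists were chosen with earlier results of these data known. Sorted-cell and chromatin data were not used here.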

Additional observations from a re-analysis of the deposited data

Results flagged for a closer look

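For 6 named genes, every library moved one way with Dnmt3C loss where Nrf1 was deleted and the other way where it was intact. The difference between the contrasts (log2 interaction, edgeR over 11 libraries) was 2.75 for Gm18042, -1.17 for Crip2, 0.55 for Mdm2, 0.94 for Brca2, 0.71 for Polq and 0.67 for Atm. The test of that difference gave each an adjusted p of 0.815 and unadjusted p of 0.00139, 0.00142, 0.0114, 0.000886, 0.00463 and 0.00313, in the same order. Brca2 was at 46.3, 39.9 and 45.7 CPM in Dnmt3C KO and at 59.6 and 57.4 CPM in WT. These genes were taken because their groups moved in opposite directions without overlap, which largely sets small unadjusted p, so these are given as a description. With 3 against 2 libraries, groups that do not overlap were common: 2091 genes (10.1%) were higher and 2150 (10.3%) lower in Dnmt3C KO than in WT in this sense.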

How the results depend on the processing

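In dKO over Nrf1 cKO, no gene passed the adjusted threshold under any edgeR setting except library sizes set by germ cell markers, which called 3 genes lower (Gm14292, Tpsab1 and Hmga1b), gave 15 higher and 1163 lower genes at an unadjusted p under 0.05 and 11 calls in the interaction. DESeq2's Wald test called 3 genes higher. The unadjusted counts were 510 and 305 with 4 genotypes in one fit, and 624 and 346 with no filter on low counts. Leaving out 1 library gave between 214 (dKO replicate 1 left out) and 648 (Nrf1 cKO replicate 3 left out) higher genes, and between 141 (Nrf1 cKO replicate 2 left out) and 544 (Nrf1 cKO replicate 3 left out) lower ones. They were 526 higher without Nrf1 cKO replicate 1 and 224 higher without Nrf1 cKO replicate 2. Under the other settings the interaction had between 0 and 3 calls, the 3 being H2-Q4, H2-Q7 and H2-Eb1 without WT replicate 1. The cause of these changes was not tested.

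With a replicate block the counts were 258 and 107, and with the block and GC correction (chosen after seeing the data) 214 and 85, with 0 calls. With the block, 9 piRNA and 18 methylation-dependent germline genes were higher. Deviations of same-numbered libraries correlated at -0.18, -0.26 and 0.03, so the numbers were not taken to pair the samples.

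Of 72 named genes, 17 turned below 0 when scaled to germ cell markers, where the median of all genes was -0.70: Nrf1 -0.56, Dnmt1 -0.57, Dnmt3b -0.51, Epcam -0.17, Cdca7 -0.38, Setdb2 -0.25, Eed -0.27, Mtf2 -0.27, Oasl2 -0.40, Mdm2 -0.36, Palb2 -0.17, Brca2 -0.12, Polq -0.22, Atm -0.25, Bub1 -0.24, Ccnb1 -0.28 and Pprc1 -0.44. The scaling lowered all genes by a similar amount, so lying above that median is not a result of it. The value of Dnmt3c, near 0, became 0.06 with GC correction (with or without the block), 0.00 with gene rows only, the legacy test or the block, and -0.11 to 0.11 without 1 library. Without 1 library, Dnmt1 ran from -0.18 to 0.25, Dnmt3a from -0.23 to 0.02 and Hba-a2 from -1.26 to 0.38. BC051019 kept values between 2.78 and 3.74, Spag16 between 2.95 and 4.00 and Sycp1 between 0.69 and 1.53 over all settings. At this depth, genes with a few reads per library, such as Gabrr1 and Gm15389, have wide errors.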

Other observations

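Some single libraries held levels far from the others, given here as values. Dnmt3l, the cofactor of de novo methylation in fetal germ cells, was below the filter on low counts, with 51 reads in Nrf1 cKO 1 and between 3 and 11 in the other 5 libraries. Tpsab1, a tryptase of mast cells, was at 12.5 CPM in Nrf1 cKO 1 and at most 0.888 CPM in the other 5. Hba-a2, a globin gene of red blood cells, was at 304 CPM in Nrf1 cKO 2 and between 48.3 and 106 CPM in the others.

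Among the 39 genes higher with Dnmt3C loss in both contrasts, Wbp2nl, known for a sperm head protein, was at 1.74, 1.28 and 0.664 CPM in dKO and at 0.752, 0.296 and 0.230 CPM in Nrf1 cKO. Nlrp4c, of a family expressed in germ cells and oocytes, was at 26.1, 18.9 and 10.7 CPM and at 11, 5.14 and 6.58 CPM. Both overlapped between the groups and had log2 fold changes of 1.5 ± 0.54 and 1.30 ± 0.35. Wbp2nl passed the low-count filter mainly through dKO.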
